A study of Mus musculus with 27 samples.

Results

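Autophagy is the route by which cells enclose their own components in membrane vesicles and deliver them to lysosomes for breakdown. The transcripts of 44 genes of this route were followed in mouse liver: the ULK1 kinase complex, the PI3-kinase complexes, the proteins that supply membrane, the conjugation enzymes, the ATG4 proteases, the ATG8 proteins, the cargo receptors and mitophagy receptors, the transcription factors Tfeb and Tfe3 and the tether Epg5. Members were the listed symbols whose value was at least 10 in at least 3 of the 27 libraries, which held for 44 of 44. They are among 15932 genes that passed the same filter, out of 45706 in the table. Over all members and libraries the values lay between 146 and 30146 normalised read counts, so none entered through a group with high values alone. The other genes needed only 10 in 3 libraries, so the shares of all genes below are not matched to the members in level.

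The livers came from mice labelled wild type of the strain given as C57/BLN6, and each of the 9 groups held 3 libraries, called biological replicates in the design text of the series. A fast of 16 h preceded sampling in all groups, the controls included. The fasted group was taken at its end, the refed groups after a further 30, 60, 120 or 240 min with access to food, and the caged food groups after the same times with food labelled as caged. The fasted group has no later times, so against it feeding and clock time cannot be told apart, whereas the refed and caged food groups are matched in time. Sex and age are not given in the sources used here, and the mice carried no transgene named in the labels.

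As background, autophagy in the liver is known to be active in fasting, when it supplies amino acids, lipids and glucose precursors, and to be held back after a meal, when insulin and amino acids activate the kinase mTORC1. Active mTORC1 phosphorylates and restrains the ULK1 kinase complex and keeps the transcription factors TFEB and TFE3 out of the nucleus. The ULK1 complex starts a vesicle, a PI3-kinase complex marks its membrane with a phosphorylated lipid, ATG9 and ATG2 proteins bring lipids, and a conjugation chain attaches ATG8 proteins (the LC3 and GABARAP families) to the membrane, where receptors bind them and bring cargo. Much of this control acts on proteins, and the values below are of RNA.

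Promoters of 6 members whose RNA fell after refeeding are shown, since these genes carry most of the change described below. Each is the stretch of 250 bases before the start of the gene in the RefSeq annotation, from the RefSeq promoter table of build GRCm38.p6, printed 5′ to 3′ on the strand of the gene. Capitals mark matches, on both strands and with overlaps counted, to 4 short motifs: the forkhead motif TGTTTAC, the E-box CACGTG bound by factors of the TFEB family, the cyclic AMP response element TGACGTCA and the GC box GGGCGG.
Ulk1: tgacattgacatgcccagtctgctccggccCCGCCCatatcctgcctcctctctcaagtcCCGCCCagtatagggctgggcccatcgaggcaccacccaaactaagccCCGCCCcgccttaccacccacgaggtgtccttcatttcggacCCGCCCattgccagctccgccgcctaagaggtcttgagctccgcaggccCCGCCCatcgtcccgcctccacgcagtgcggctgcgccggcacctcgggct
Calcoco1: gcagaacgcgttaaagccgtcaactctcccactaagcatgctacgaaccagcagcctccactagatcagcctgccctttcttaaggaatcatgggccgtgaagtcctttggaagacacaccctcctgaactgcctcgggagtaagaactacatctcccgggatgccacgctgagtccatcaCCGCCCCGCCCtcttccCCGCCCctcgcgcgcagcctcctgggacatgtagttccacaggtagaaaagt
Atg2a: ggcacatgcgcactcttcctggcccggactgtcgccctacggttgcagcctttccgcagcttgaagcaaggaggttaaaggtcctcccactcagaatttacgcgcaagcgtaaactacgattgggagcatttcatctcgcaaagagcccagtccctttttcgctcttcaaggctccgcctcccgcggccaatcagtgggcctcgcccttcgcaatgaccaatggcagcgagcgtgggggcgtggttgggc
Map1lc3b: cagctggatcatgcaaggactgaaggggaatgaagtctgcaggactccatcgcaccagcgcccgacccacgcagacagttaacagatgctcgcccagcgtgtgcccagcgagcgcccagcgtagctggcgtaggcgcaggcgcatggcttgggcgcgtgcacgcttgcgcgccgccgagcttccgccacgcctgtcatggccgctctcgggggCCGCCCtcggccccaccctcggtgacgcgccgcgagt
Gabarapl1: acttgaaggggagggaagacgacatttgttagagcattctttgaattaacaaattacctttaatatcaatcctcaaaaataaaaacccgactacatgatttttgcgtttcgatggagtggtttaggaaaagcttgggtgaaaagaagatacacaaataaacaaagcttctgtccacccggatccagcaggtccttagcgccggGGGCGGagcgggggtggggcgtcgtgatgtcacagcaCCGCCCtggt
Atg16l2: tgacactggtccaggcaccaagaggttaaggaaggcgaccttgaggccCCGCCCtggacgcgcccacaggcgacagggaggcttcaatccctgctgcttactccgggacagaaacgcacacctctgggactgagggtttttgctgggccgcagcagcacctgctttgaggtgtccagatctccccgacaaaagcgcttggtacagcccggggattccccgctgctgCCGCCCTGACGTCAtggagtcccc

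These promoters lie at chr5:110810082-110810331 (minus strand, Ulk1), chr15:102722179-102722428 (minus, Calcoco1), chr19:6241418-6241667 (plus, Atg2a), chr8:121590188-121590437 (plus, Map1lc3b), chr6:129532942-129533191 (plus, Gabarapl1) and chr7:101302089-101302338 (minus, Atg16l2). In the GENCODE annotation used for gene positions below, 4 of these genes begin further upstream, so that 16 bases of the Ulk1 stretch, 32 of Gabarapl1, 77 of Map1lc3b and 163 of Atg16l2 lie within the gene. The GC box matched 5 times in the Ulk1 promoter, 3 times in that of Calcoco1, 2 times in those of Gabarapl1 and Atg16l2 and once in that of Map1lc3b. The Atg2a promoter held none of the 4 motifs, and Atg16l2 alone of the 6 held the cyclic AMP response element. A promoter was listed for 36 of the 44 members. The GC box was found in 23 of these 36, and in 8 of the 11 with a promoter among the 14 genes that fell at 240 min, against 32.7% of the 32851 promoters in the table. A member counted when any of its listed promoters matched, whereas this share and those below are of single promoters. The promoters of the table were not matched to the members in expression. Whether the genes that fell differ from the other members in this motif was not tested. No member promoter held the forkhead motif, found in 3.17% of all promoters. The E-box stood in those of Atg3, Atg5, Atg7 and Bnip3, and in 6.02% of all promoters. None of these 4 genes was called against fasted livers, and Bnip3 was called lower than with caged food at 240 min. The cyclic AMP response element was in the promoter of Atg16l2 alone of the 36 and in 1.55% of all. A match is a run of letters only, and binding was not measured.

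The normalised read counts summed to between 40654573 and 50037562 per library. From the steps between low values the libraries were estimated to hold 25500000 to 52500000 counted reads. A single read was worth 0.775 to 1.69 normalised read counts, so the lowest member value still rested on many reads. Libraries of 1 group correlated across genes at 0.979 to 0.991 (log2 scale). Markers of hepatocytes summed to between 4455667 and 7367384 per library and none was at 0 in any library, so the tissue matched its label. Some libraries stood apart. The first of refed 30 min held pancreatic transcripts (a summed level of 6153 over 11 marker genes, against 357 and 385 in its group). Replicate 1 of caged food at 30 min lay at -35.7 on the second principal component, and replicate 2 of caged food at 60 min at -35.9. Replicate 2 of caged food at 30 min, replicate 3 of caged food at 120 min and the first replicates of refed 120 and 240 min differed from their groups to a lesser degree. For 2 libraries the labels disagree. The titles name refed 240 min replicate 3 and caged food 240 min replicate 1, and the treatment labels give each the other treatment. Over 200 genes that separated refed from caged food livers at 120 min, members left out, the library titled refed 240 min replicate 3 scored 0.491, beside 0.762 and 0.565 for its group, and the library titled caged food 240 min replicate 1 scored -0.632, beside -0.605 and -0.582. The titles were followed, and counts at 240 min are also given without these 2 libraries and with the treatment labels.

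In refed livers the RNA of part of the autophagy machinery was lower than in fasted livers, and the number of genes that had fallen grew with time. The changes below are log2 fold changes on the scale log2(value + 1), with the standard error after ±, from limma fitted to all 27 libraries, and p-values are adjusted by Benjamini-Hochberg over all 15932 genes. A gene is called when its adjusted p is under 0.05. Against fasted livers, 1 member rose and 0 fell at 30 min (1.63% of all genes were called in either direction, 1.31% rising and 0.326% falling). At 60 min 1 rose and 5 fell (11% of all genes called, 7.26% rising and 3.75% falling). At 120 min 1 rose and 10 fell (14.1% called, 7.95% rising and 6.13% falling). At 240 min 1 rose and 14 fell (24.3% called, 12.9% rising and 11.4% falling). The members' median changes were -0.01, -0.04, -0.10 and -0.09 at the 4 times, beside medians of -0.0013, -0.02, -0.0005 and 0.0048 over all genes. A median does not show the size of single changes, since rises and falls cancel in it. At 240 min the members ranged from -1.96 to 0.41, and 18 were lower and 5 higher at an unadjusted p under 0.05 (limma). All 5 genes that fell at 60 min also fell at 120 min, and all 10 of 120 min at 240 min, in comparisons that share the same fasted livers. At 120 min the count of calls dropped to 6 when fasted replicate 2 was left out, and to 7 for fasted replicate 3 or refed 120 min replicate 2 or 3. The single call of 30 min was lost without fasted replicate 1, fasted replicate 3 or refed 30 min replicate 2. At 240 min 16 members were called without the 2 libraries of conflicting labels, and 0 when these were grouped by treatment label. In bulk RNA, fewer cells of a type and less RNA per cell cannot be told apart. Markers of liver endothelial cells summed to between 21131 and 21890 in refed livers of 240 min and between 23393 and 26091 in fasted livers, with 2 of 10 fallen, and 2 of 10 stellate cell markers fell as well (summed levels 13496 to 17258 against 18085 to 20247). None of these markers was at 0 in any library. In the same comparison limma called 0 markers of hepatocytes, Kupffer cells, bile duct cells, leukocytes, pancreas, fat and red cells, with 0, 0, 2, 1, 1, 0 and 0 at an unadjusted p under 0.05. The part of other cell types in the result was not tested.

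**Figure D1:**
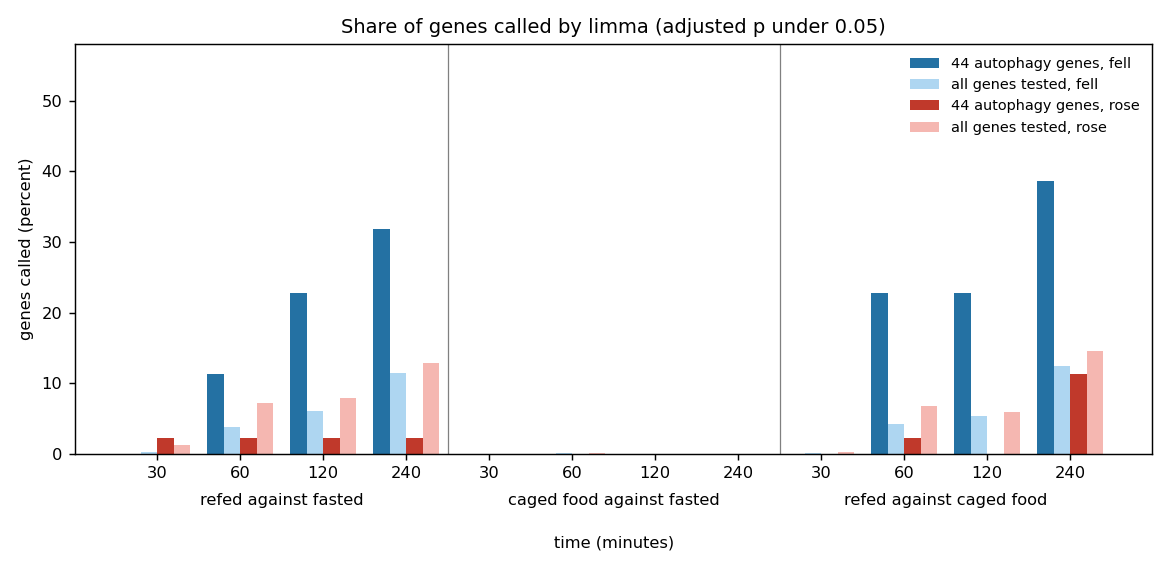
Percent of the 44 autophagy genes (dark bars) and of all 15932 genes tested (pale bars) called by limma at an adjusted p under 0.05, separately for falls (blue) and rises (red), for each comparison and time. In refed livers the falling share of the 44 genes is above that of all genes from 60 min on, and no member was called between caged food and fasted livers. The sets are not matched for expression level.

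Of the 5 genes of the initiating kinase complex, Ulk1, Atg101 and Rb1cc1 fell against fasted livers by 240 min. Ulk1 (ENSMUSG00000029512, chromosome 5, 110784488 to 110810097, minus strand of GRCm38) encodes the kinase that starts autophagosome formation and is itself a target of mTORC1 and AMPK. Its values were 4831, 4377 and 4168 in fasted livers, 4604, 4690 and 4661 at 30 min, 3209, 3575 and 2992 at 60 min, 2336, 2242 and 2125 at 120 min and 1793, 2282 and 2143 at 240 min of refeeding. In caged food livers they were 4312, 4315 and 3912 at 30 min, 4458, 5250 and 4947 at 60 min, 4832, 4684 and 4258 at 120 min and 4080, 4609 and 4016 at 240 min. All 9 refed libraries of 60 to 240 min lay below every fasted and caged food library, and those of 30 min did not. Against fasted livers the log2 change of Ulk1 was -0.45 ± 0.09 (adjusted p = 0.00127) at 60 min, -0.99 ± 0.09 (adjusted p = 8.95e-08) at 120 min and -1.11 ± 0.09 (adjusted p = 9.47e-09) at 240 min, which leaves 0.463 of the fasted level. Rb1cc1, which encodes the scaffold FIP200, read 1953, 1899 and 1803 in fasted livers, 1881, 1983 and 1747 at 30 min, 1649, 1834 and 2220 at 60 min, 1532, 1762 and 1546 at 120 min and 1432, 1355 and 1632 at 240 min of refeeding. With caged food Rb1cc1 stood at 1765, 1899 and 1685 at 30 min, 2224, 1955 and 2119 at 60 min, 2036, 1763 and 1856 at 120 min and 1811, 2016 and 2307 at 240 min. Only the refed libraries of 120 and 240 min all lay below the fasted ones, and the fall passed the test at 240 min, at -0.36 ± 0.10 (adjusted p = 0.012). Without refed 240 min replicate 2 the adjusted p of Rb1cc1 was 0.0638, and without the libraries standing apart 0.0716. Atg101, an adaptor that stabilises ATG13, read 1231, 1399 and 1303 in fasted livers, 1141, 1078 and 1317 at 30 min, 1157, 904 and 907 at 60 min, 1029, 908 and 1006 at 120 min and 928, 927 and 1055 at 240 min of refeeding. Its caged food values were 1183, 1321 and 1514 at 30 min, 1405, 1005 and 1190 at 60 min, 1295, 1240 and 1262 at 120 min and 1345, 1248 and 1190 at 240 min. Atg101 fell at 60 min (-0.41 ± 0.11, adjusted p = 0.0198), 120 min (-0.42 ± 0.11, adjusted p = 0.0156) and 240 min (-0.43 ± 0.11, adjusted p = 0.00719). The adjusted p of 60 min became 0.0996 and 0.0574 with replicates 2 and 3 of the fasted group left out in turn and 0.0874 and 0.0997 with replicates 2 and 3 of the refed 60 min group left out in turn. That of 120 min became 0.0781 without fasted replicate 2 and 0.0787 without refed 120 min replicate 2. A fit of fasted and refed 60 min livers alone gave 0.0607 at 60 min. Atg13, the subunit that links the kinase to FIP200, stood at 2935, 2976 and 2959 in fasted livers, 3160, 3147 and 2933 at 30 min, 2466, 2811 and 2671 at 60 min, 3121, 3658 and 3209 at 120 min and 3314, 3531 and 2936 at 240 min of refeeding. Its values with caged food were 2775, 2871 and 2823 at 30 min, 3096, 3532 and 3214 at 60 min, 3177, 3299 and 2955 at 120 min and 3240, 2961 and 3105 at 240 min. Its refed values dipped below all fasted ones at 60 min and exceeded them at 120 min, where the changes were -0.16 ± 0.07 (adjusted p = 0.198) and 0.17 ± 0.07 (adjusted p = 0.144) and were not called. Ulk2, the relative of Ulk1, ranged from 2775 to 4101 over the 27 libraries and was not called against fasted livers at any time.

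**Figure D2:**
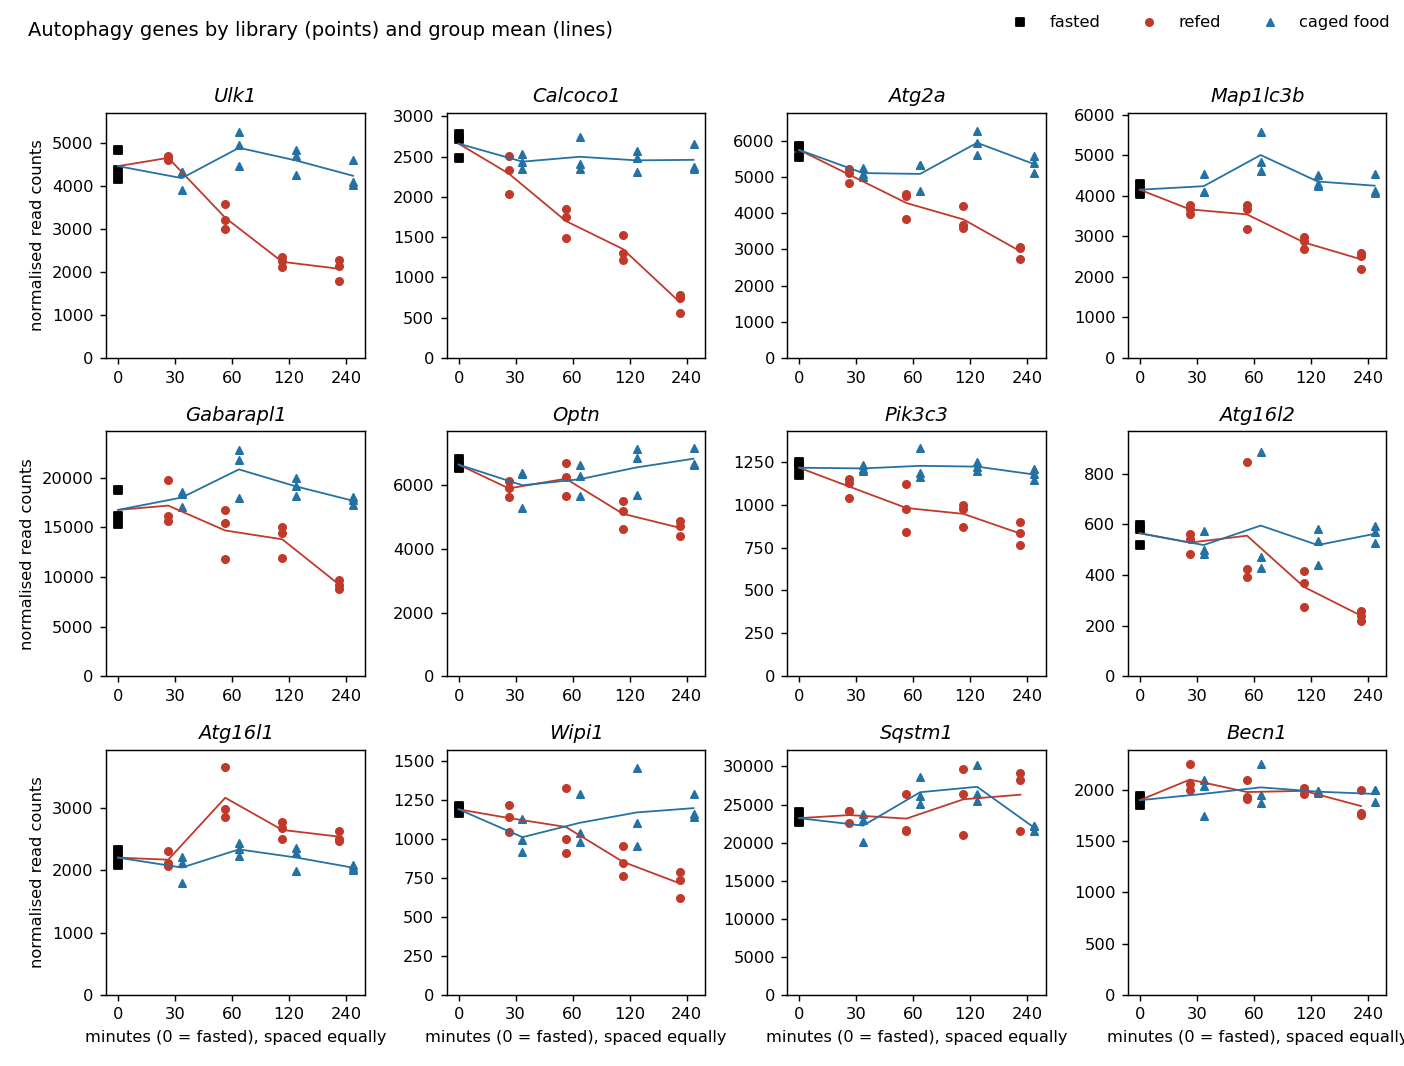
Normalised read counts of 12 members in every library (points), with lines through the group means, for fasted (black squares), refed (red circles) and caged food livers (blue triangles), the times spaced equally on the horizontal axis. Ulk1, Calcoco1, Atg2a and Map1lc3b descend step by step in refed livers while the refed libraries of Sqstm1 overlap the fasted ones at all 4 times.

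Of the 6 genes of the PI3-kinase complexes, 1 was called against fasted livers, that of the lipid kinase itself. Pik3c3, which encodes the catalytic subunit VPS34, read 1223, 1175 and 1247 in fasted livers, 1038, 1148 and 1128 at 30 min, 843, 977 and 1121 at 60 min, 996, 868 and 975 at 120 min and 764, 898 and 832 at 240 min of refeeding. With caged food the values were 1207, 1193 and 1233 at 30 min, 1330, 1186 and 1162 at 60 min, 1251, 1218 and 1195 at 120 min and 1141, 1180 and 1205 at 240 min. Refed libraries of every time lay below all 3 fasted ones. Pik3c3 fell at 60 min (-0.32 ± 0.09, adjusted p = 0.0156), 120 min (-0.36 ± 0.09, adjusted p = 0.00511) and 240 min (-0.55 ± 0.09, adjusted p = 4.9e-05). The adjusted p of 60 min became 0.0669 without fasted replicate 3 and 0.113 without refed 60 min replicate 1, and 0.118 in a fit of those 2 groups alone. Becn1 encodes Beclin 1, the subunit that holds the complex together. Its values were 1937, 1913 and 1849 in fasted livers, 2252, 2057 and 1995 at 30 min, 1929, 1911 and 2098 at 60 min, 2020, 1997 and 1956 at 120 min and 1756, 2002 and 1770 at 240 min of refeeding. With caged food they were 1750, 2036 and 2099 at 30 min, 1875, 1951 and 2249 at 60 min, 1974, 1988 and 1987 at 120 min and 2001, 1881 and 2001 at 240 min. The groups overlapped at 60 and 240 min, and at 240 min the change was -0.05 with a 95% confidence interval from -0.20 to 0.11. The annotated exons of Becn1 share 43.9% of their bases with Cntd1 on the other strand. The strand setting of the counting is not given in the sources used here. Atg14, which directs the kinase to forming autophagosomes, read 973, 820 and 853 in fasted livers, 962, 855 and 895 at 30 min, 743, 975 and 1135 at 60 min, 753, 1038 and 997 at 120 min and 681, 740 and 777 at 240 min of refeeding. In caged food livers Atg14 read 953, 935 and 805 at 30 min, 1194, 1452 and 1279 at 60 min, 1012, 962 and 850 at 120 min and 885, 937 and 977 at 240 min. The 3 caged food libraries of 60 min were the highest of all 27, and the 5 lowest were the 3 refed libraries of 240 min and 2 refed ones of earlier times, at 743 and 753. Neither difference from fasted livers was called (0.57 ± 0.13, adjusted p = 0.0582 for caged food at 60 min and -0.27 ± 0.13, adjusted p = 0.147 for refed at 240 min). Pik3r4, the regulatory subunit VPS15, ranged from 1204 to 1626, Uvrag, of the endosomal form of the complex, from 1385 to 1786, and Ambra1, a regulator bound to Beclin 1, from 1482 to 2206. None of these 3 was called against fasted livers.

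Of the 6 genes for membrane supply, 4 fell by 240 min. Atg2a (ENSMUSG00000024773, chromosome 19, 6241668 to 6262335, plus strand of GRCm38) encodes a protein that carries lipids from the endoplasmic reticulum into the growing membrane. Atg2a read 5565, 5833 and 5864 in fasted livers, 4842, 5130 and 5234 at 30 min, 4524, 4487 and 3846 at 60 min, 4207, 3681 and 3606 at 120 min and 2732, 3031 and 3082 at 240 min of refeeding. With caged food it read 5093, 5255 and 4994 at 30 min, 5324, 4609 and 5340 at 60 min, 5960, 5621 and 6276 at 120 min and 5577, 5382 and 5125 at 240 min. Refed values were below all fasted values from 30 min on and below all caged food values of the same time from 60 min on. The log2 changes against fasted livers were -0.43 ± 0.08 (adjusted p = 0.000506) at 60 min, -0.59 ± 0.08 (adjusted p = 1.36e-05) at 120 min and -0.97 ± 0.08 (adjusted p = 9.47e-09) at 240 min, or 0.512 of the fasted level. Wipi1, a sensor of the lipid made by VPS34, read 1161, 1193 and 1209 in fasted livers, 1215, 1042 and 1139 at 30 min, 1323, 997 and 905 at 60 min, 956, 841 and 759 at 120 min and 618, 788 and 734 at 240 min of refeeding. The caged food livers had 913, 1123 and 992 at 30 min, 981, 1283 and 1039 at 60 min, 1452, 1100 and 951 at 120 min and 1139, 1159 and 1288 at 240 min. Wipi1 fell at 120 min (-0.48 ± 0.14, adjusted p = 0.0258) and 240 min (-0.74 ± 0.14, adjusted p = 0.00054). The adjusted p of 120 min became 0.0561, 0.0719 and 0.0751 with replicates 1, 2 and 3 of the fasted group left out in turn and 0.071 and 0.122 with replicates 2 and 3 of the refed 120 min group left out in turn. Wipi2, the sensor that recruits ATG16L1, read 5196, 5182 and 5164 in fasted livers, 5107, 5176 and 4879 at 30 min, 5089, 4628 and 4531 at 60 min, 4899, 4365 and 4488 at 120 min and 3850, 4385 and 3932 at 240 min of refeeding. With caged food Wipi2 stood at 4405, 5213 and 5358 at 30 min, 5209, 5081 and 5666 at 60 min, 5436, 5561 and 4989 at 120 min and 5024, 5287 and 5017 at 240 min. Its fasted libraries were close to each other, from 5164 to 5196, and the fall was called at 240 min (-0.36 ± 0.07, adjusted p = 0.0011). Atg9a, which encodes a lipid scramblase carried in vesicles, read 1946, 2043 and 2014 in fasted livers, 2022, 2069 and 2115 at 30 min, 1755, 1975 and 1750 at 60 min, 1760, 1658 and 1637 at 120 min and 1560, 1574 and 1500 at 240 min of refeeding. Caged food values of Atg9a were 1856, 1992 and 1601 at 30 min, 1978, 1895 and 2076 at 60 min, 1892, 1955 and 1884 at 120 min and 1830, 1920 and 1752 at 240 min. It fell at 120 min (-0.25 ± 0.07, adjusted p = 0.0177) and 240 min (-0.37 ± 0.07, adjusted p = 0.000348). The p of 120 min became 0.0692 and 0.0562 with replicates 2 and 3 of the fasted group left out in turn and 0.0613 and 0.0732 with replicates 2 and 3 of the refed 120 min group left out in turn. Atg9a shares 31.8% of its exon bases with the transcript Gm29253 on the same strand, and how the counting treated such reads is not given in the sources used here. Atg2b, the relative of Atg2a, ranged from 1991 to 2827 and was not called. Vmp1, a scramblase of the endoplasmic reticulum, was the only member called at 30 min. It read 4113, 4808 and 4012 in fasted livers and 5876, 6536 and 5784 in livers refed for 30 min, with no overlap. The caged food libraries of 30 min read 5384, 4243 and 6130. Its rise was 0.50 ± 0.11 (adjusted p = 0.0137). The adjusted p became 0.0671 and 0.107 with replicates 1 and 3 of the fasted group left out in turn and 0.117 without refed 30 min replicate 2.

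Conjugation enzymes moved in opposite directions in 1 pair. Atg16l1 (ENSMUSG00000026289, chromosome 1, 87755870 to 87792428, plus strand of GRCm38) encodes the subunit that places the ATG12-ATG5 conjugate on the membrane, and Atg16l2 (ENSMUSG00000047767, chromosome 7, 101263034 to 101302251, minus strand of GRCm38) a related protein. Atg16l1 read 2198, 2088 and 2332 in fasted livers, 2078, 2316 and 2125 at 30 min, 3659, 2864 and 2985 at 60 min, 2777, 2502 and 2676 at 120 min and 2480, 2509 and 2641 at 240 min of refeeding. Its caged food values were 1804, 2219 and 2117 at 30 min, 2225, 2351 and 2440 at 60 min, 2362, 2273 and 1990 at 120 min and 2013, 2034 and 2088 at 240 min. All refed values from 60 min on exceeded all fasted values. The rise was 0.52 ± 0.09 (adjusted p = 0.000313) at 60 min and 0.27 ± 0.09 (adjusted p = 0.0453) at 120 min. At 120 min the p of Atg16l1 became 0.102, 0.172 and 0.0524 with replicates 1, 2 and 3 of the fasted group left out in turn and 0.143, 0.0509 and 0.115 with replicates 1, 2 and 3 of the refed 120 min group left out in turn. It also missed the threshold without the filter on low values (0.0763), after quantile normalization (0.0579), with a replicate block (0.0621) and without the libraries standing apart (0.111). At 240 min the change of 0.21 was not called. Atg16l2 read 517, 582 and 597 in fasted livers, 541, 483 and 561 at 30 min, 847, 426 and 394 at 60 min, 416, 275 and 369 at 120 min and 239, 260 and 220 at 240 min of refeeding. With caged food it stood at 499, 483 and 574 at 30 min, 470, 888 and 429 at 60 min, 583, 533 and 440 at 120 min and 570, 527 and 592 at 240 min. Refed 60 min replicate 1 and caged food 60 min replicate 2 were high, at 847 and 888, and all refed libraries of 120 and 240 min lay below the fasted ones. Atg16l2 fell by 1.24 ± 0.23 (adjusted p = 0.000414) at 240 min, to 0.425 of the fasted level. It also fell at 120 min (-0.69 ± 0.23, adjusted p = 0.0495). The p of 120 min became 0.0741, 0.128 and 0.134 with replicates 1, 2 and 3 of the fasted group left out in turn and 0.219 and 0.0871 with replicates 2 and 3 of the refed 120 min group left out in turn. That p was 0.0841 without the filter on low values, 0.0504 with a pseudocount of 5 and 0.0581 with a replicate block. Atg5, the partner of ATG12, read 2869, 2627 and 2830 in fasted livers, 2811, 2562 and 2960 at 30 min, 2795, 2729 and 3044 at 60 min, 2679, 2483 and 2445 at 120 min and 2682, 2720 and 2650 at 240 min of refeeding. The values with caged food were 2400, 2897 and 3008 at 30 min, 2934, 2594 and 2903 at 60 min, 2927, 3020 and 2668 at 120 min and 3108, 2916 and 3063 at 240 min. Fasted and refed libraries of Atg5 overlapped at all 4 times. Atg7, the enzyme that activates ATG8 and ATG12, read 2645, 2729 and 2682 in fasted livers, 2411, 2203 and 2327 at 30 min, 2102, 2689 and 2313 at 60 min, 2285, 2394 and 2273 at 120 min and 2507, 2538 and 2640 at 240 min of refeeding. With caged food Atg7 stood at 1876, 2473 and 2328 at 30 min, 2786, 2753 and 2599 at 60 min, 2455, 2459 and 1886 at 120 min and 2634, 2431 and 2234 at 240 min. At 30, 120 and 240 min of refeeding all Atg7 values lay below the fasted ones, with changes of -0.22, -0.21 and -0.07 that were not called. The carrier enzymes Atg3 (2812 to 4236) and Atg10 (146 to 225) and the ubiquitin-like Atg12 (1317 to 1975) were not called against fasted livers, nor were the proteases Atg4a (167 to 273), Atg4b (1376 to 1779), Atg4c (622 to 848) and Atg4d (1379 to 1979), which trim ATG8 proteins and release them from membranes.

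**Figure D3:**
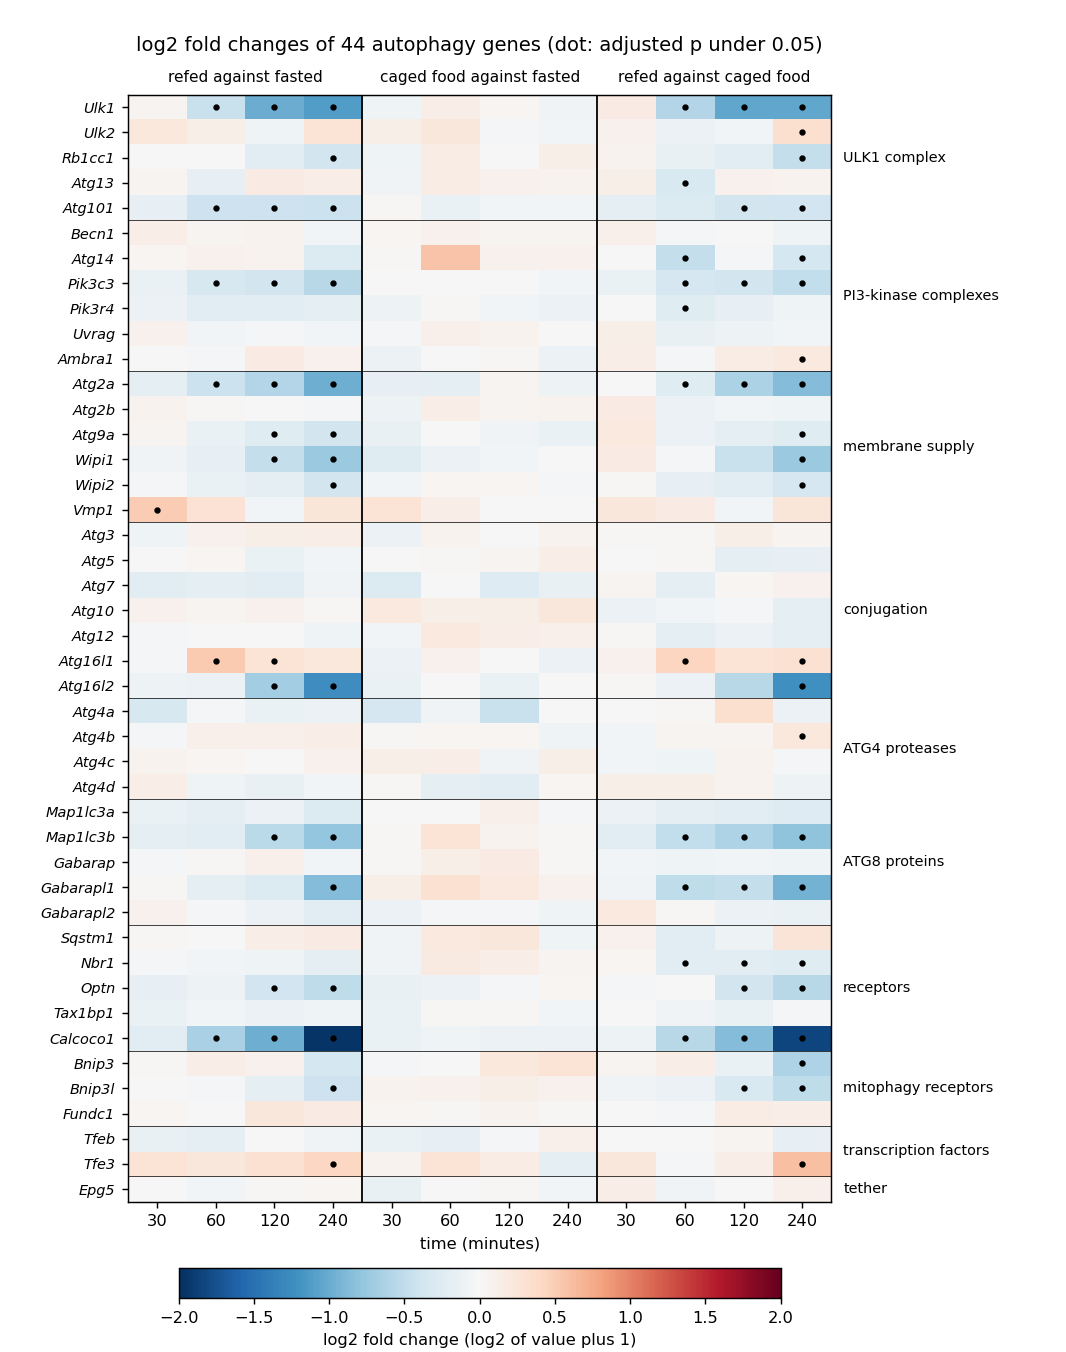
Log2 fold changes of the 44 genes (rows, grouped by role) in the 12 comparisons at a single time (columns), blue for lower and red for higher, with a dot where limma called the gene. Dots stand mainly in the refed columns of 60 to 240 min and are absent from all 4 columns of caged food against fasted livers.

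Among the ATG8 proteins, which coat the autophagosome, 2 of 5 fell. Map1lc3b (ENSMUSG00000031812, chromosome 8, 121590361 to 121598760, plus strand of GRCm38) encodes LC3B, the usual marker protein of autophagosomes. Map1lc3b read 4299, 4124 and 4039 in fasted livers, 3767, 3555 and 3682 at 30 min, 3767, 3687 and 3180 at 60 min, 2990, 2882 and 2687 at 120 min and 2188, 2596 and 2522 at 240 min of refeeding. With caged food it read 4087, 4099 and 4538 at 30 min, 4836, 5590 and 4605 at 60 min, 4257, 4509 and 4304 at 120 min and 4554, 4130 and 4076 at 240 min. Refed values lay below the fasted ones at every time, by -0.54 ± 0.08 (adjusted p = 6.33e-05) at 120 min and -0.77 ± 0.08 (adjusted p = 3.03e-07) at 240 min, while the difference at 60 min did not pass against fasted livers. Gabarapl1 (ENSMUSG00000030161, chromosome 6, 129533160 to 129542346, plus strand of GRCm38) had the highest level per kb of the 44 genes. Its values were 18725, 15387 and 16191 in fasted livers, 19750, 15680 and 16178 at 30 min, 11854, 15447 and 16780 at 60 min, 15067, 14429 and 11932 at 120 min and 9724, 8771 and 9206 at 240 min of refeeding. The caged food livers held 17062, 18608 and 18393 at 30 min, 21777, 17973 and 22797 at 60 min, 18189, 20007 and 19222 at 120 min and 17253, 18103 and 17720 at 240 min. In fasted livers replicate 1 was the highest, and refed libraries overlapped the fasted range at 30 and 60 min but not at 120 or 240 min. Gabarapl1 fell at 240 min by 0.86 ± 0.12 (adjusted p = 1.29e-05), to 0.552 of the fasted level. The annotated exons of Gabarapl1 share 28.3% of their bases with 1700101I11Rik on the other strand. Shares on the other strand were 22.3% for Bnip3, 19.3% for Atg4d, 17.6% for Uvrag and 17.3% for Sqstm1. Libraries were made with a stranded kit per the labels, and the strand setting of the counting is not given in the sources used here. Map1lc3a ranged from 1911 to 3095, Gabarap from 7562 to 10030 and Gabarapl2 from 278 to 433, and none was called against fasted livers. Reads of the related ATG8 genes and of processed copies elsewhere in the genome may not be fully separable.

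Of the cargo receptors, Calcoco1 changed most. Calcoco1 (ENSMUSG00000023055, chromosome 15, 102706777 to 102722178, minus strand of GRCm38) encodes a receptor for turnover of the endoplasmic reticulum and the Golgi. Its values were 2718, 2784 and 2478 in fasted livers, 2332, 2031 and 2501 at 30 min, 1492, 1753 and 1854 at 60 min, 1529, 1308 and 1219 at 120 min and 554, 744 and 776 at 240 min of refeeding. With caged food they were 2342, 2436 and 2531 at 30 min, 2741, 2345 and 2405 at 60 min, 2565, 2480 and 2313 at 120 min and 2657, 2374 and 2346 at 240 min. From 60 min on every refed library was below every fasted and caged food library, and the 3 of 240 min were the lowest of all. The log2 change was -0.65 ± 0.11 (adjusted p = 0.000372) at 60 min, -0.98 ± 0.11 (adjusted p = 3.26e-06) at 120 min and -1.96 ± 0.11 (adjusted p = 5.45e-11) at 240 min, or 0.258 of the fasted level, the largest change of any member in any comparison. Optn, which encodes optineurin, a receptor for damaged mitochondria and bacteria, read 6558, 6823 and 6530 in fasted livers, 5908, 5636 and 6128 at 30 min, 6693, 5645 and 6247 at 60 min, 5497, 4624 and 5171 at 120 min and 4390, 4721 and 4855 at 240 min of refeeding. In caged food livers the values were 5265, 6341 and 6362 at 30 min, 6611, 5657 and 6266 at 60 min, 6843, 7125 and 5679 at 120 min and 6669, 6624 and 7172 at 240 min. Optn fell at 120 min (-0.38 ± 0.09, adjusted p = 0.00554) and 240 min (-0.51 ± 0.09, adjusted p = 0.000222). Sqstm1 encodes p62, the receptor for ubiquitinated cargo that autophagy itself removes. Sqstm1 read 22747, 22799 and 24084 in fasted livers, 24123, 24147 and 22594 at 30 min, 26322, 21525 and 21607 at 60 min, 29625, 20996 and 26449 at 120 min and 29113, 28290 and 21476 at 240 min of refeeding. With caged food it was 20041, 22940 and 23703 at 30 min, 25079, 26162 and 28615 at 60 min, 25402, 30146 and 26451 at 120 min and 22192, 22196 and 21525 at 240 min. The refed libraries of 120 and 240 min spread from 20996 to 29625 and overlapped the fasted ones, and the change at 240 min was 0.17 (95% confidence interval -0.08 to 0.41). Nbr1, a receptor related to p62, was not called against fasted livers (-0.18 ± 0.07, adjusted p = 0.0655 at 240 min), and Tax1bp1, which ranged from 7162 to 9166, was not either.

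The mitophagy receptors BNIP3 and NIX sit in the outer mitochondrial membrane and bind ATG8 proteins directly. Bnip3l, the gene of NIX, read 1993, 1973 and 1976 in fasted livers, 2032, 2025 and 1884 at 30 min, 2035, 1758 and 2056 at 60 min, 1865, 1667 and 1642 at 120 min and 1461, 1493 and 1495 at 240 min of refeeding. The caged food values were 1873, 2085 and 2280 at 30 min, 2041, 1930 and 2365 at 60 min, 2192, 2058 and 2155 at 120 min and 2071, 1967 and 2304 at 240 min. The highest refed library of 240 min was at 1495 and the lowest fasted one at 1973, a fall of 0.42 ± 0.08 (adjusted p = 0.000694). Bnip3 read 3953, 3047 and 3704 in fasted livers, 3773, 3544 and 3535 at 30 min, 4665, 3276 and 3896 at 60 min, 4022, 3695 and 3560 at 120 min and 2757, 2880 and 2720 at 240 min of refeeding. With caged food Bnip3 read 2822, 3709 and 4040 at 30 min, 3947, 3084 and 3732 at 60 min, 4347, 4660 and 3419 at 120 min and 4392, 3700 and 4869 at 240 min. Its refed libraries of 240 min lay below all fasted ones as well, and the change of -0.35 ± 0.14 (adjusted p = 0.0777) was not called. Fundc1, the third receptor of this kind, ranged from 283 to 391 and was not called. Of the transcription factors, Tfe3 read 1345, 1347 and 1353 in fasted livers, 1653, 1775 and 1507 at 30 min, 1729, 1458 and 1579 at 60 min, 1796, 1485 and 1709 at 120 min and 1919, 1910 and 1583 at 240 min of refeeding. With caged food Tfe3 read 1439, 1445 and 1350 at 30 min, 1382, 1895 and 1653 at 60 min, 1440, 1570 and 1495 at 120 min and 1251, 1232 and 1082 at 240 min. Refed libraries lay above the fasted ones at all 4 times, and the rise was called at 240 min (0.41 ± 0.10, adjusted p = 0.00431). Tfeb, the better known driver of lysosomal and autophagy genes, read 443, 562 and 510 in fasted livers, 456, 429 and 477 at 30 min, 433, 461 and 434 at 60 min, 471, 525 and 526 at 120 min and 418, 509 and 518 at 240 min of refeeding. The caged food values of Tfeb were 500, 419 and 453 at 30 min, 458, 456 and 426 at 60 min, 444, 517 and 505 at 120 min and 608, 486 and 528 at 240 min. Its groups overlapped at all 4 times of refeeding, and at 240 min the change was -0.07 (95% confidence interval -0.28 to 0.15). Epg5, which tethers autophagosomes to lysosomes, ranged from 1664 to 2432 and was not called.

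Food that was present but caged did not change a member past the test. Of the 44 genes, 0 were called by limma at each of the 4 times (0.0126%, 0.22%, 0.0377% and 0% of all genes, with 0.0126%, 0.138%, 0.0126% and 0% rising and 0%, 0.0816%, 0.0251% and 0% falling), and 5, 8, 4 and 0 had an unadjusted p under 0.05 at 30, 60, 120 and 240 min. The nearest was Atg14 at 60 min, whose libraries did not overlap the fasted ones (0.57 ± 0.13, adjusted p = 0.0582). Over members, the changes ranged from -0.33 to 0.27 at 30 min, from -0.20 to 0.57 at 60 min, from -0.45 to 0.23 at 120 min and from -0.19 to 0.28 at 240 min. Variation over the 4 caged food times was called for 1 member, Atg14 (adjusted p = 0.0487, limma F test, 2.32% of all genes called), and for 0 without caged food 30 min replicate 1 or 3, 60 min replicate 2 or 3, 120 min replicate 1 or 3, or 240 min replicate 1 or 3. Over the 4 refed times 18 members varied (24.8% of all genes), with the lowest adjusted p for Calcoco1 (3.88e-09), Ulk1 (1.17e-08) and Atg2a (1.22e-06).

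Refed livers were then set against caged food livers of the same time, which removes the difference in time from the start of fasting. At 30 min limma called 0 of the 44 genes (0.276% of all genes, 0.207% higher and 0.069% lower), and 5 had an unadjusted p under 0.05. At 60 min 1 member was higher and 10 lower in refed livers (10.9% of all genes called, 6.73% higher and 4.18% lower), and 8 were called without caged food 60 min replicate 2. At this time all 10 Kupffer cell markers and all 10 leukocyte markers had lower group means in refed livers (median differences -0.36 and -0.70), and limma called 0 of the former (2 at an unadjusted p under 0.05) and 1 of the latter. The markers summed to 16760 to 21083 (Kupffer) and 493 to 815 (leukocyte) in refed livers. In caged food livers they summed to 45547 and 2418 in replicate 2, against 16742 and 19422 and against 499 and 656 in the other two, with none at 0. At 120 min 0 were higher and 10 lower (11.3% called, 5.98% higher and 5.3% lower). At 240 min 5 were higher and 17 lower (27% called, 14.6% higher and 12.4% lower). There 2 of 10 endothelial markers were lower (summed levels 21131 to 21890 against 23065 to 24171) and 2 of 7 bile duct markers higher (2436 to 2559 against 2206 to 2637 over all 8 listed, overlapping). Stellate cell markers summed to 13496 to 17258 against 17880 to 20833. Of these 10, limma called 0, and 3 were lower at an unadjusted p under 0.05. The part of other cell types in these differences was not tested. As a mean over the 4 times, 4 were higher and 18 lower (31.3% called, 17.3% higher and 14.1% lower). The size of the difference varied over the 4 times for 13 members (limma F test, 9.97% of all genes called), with the lowest adjusted p for Calcoco1, at 2.68e-06. Without the 2 libraries of conflicting labels 17 members were called at 240 min and 20 over the mean of the times, and with the treatment labels 0 and 7. Single libraries moved the counts as well, to 6 without refed 60 min replicate 1 and 7 without caged food 60 min replicate 1 at 60 min, and to 6 without refed 120 min replicate 2 or 3 at 120 min.

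Ulk1, Calcoco1, Atg2a, Pik3c3, Map1lc3b, Gabarapl1 and Nbr1 were lower than with caged food at 60, 120 and 240 min. For Ulk1 the difference was -0.58 ± 0.09 (adjusted p = 9.57e-05), -1.04 ± 0.09 (adjusted p = 5.52e-08) and -1.04 ± 0.09 (adjusted p = 2.22e-08) at these times. Calcoco1 differed by -0.56 ± 0.11 (adjusted p = 0.00187), -0.86 ± 0.11 (adjusted p = 1.59e-05) and -1.84 ± 0.11 (adjusted p = 1.96e-10). The difference of Map1lc3b was -0.50 ± 0.08 (adjusted p = 0.000195), -0.61 ± 0.08 (adjusted p = 1.82e-05) and -0.81 ± 0.08 (adjusted p = 1.49e-07). Refed and caged food libraries of these 3 genes did not overlap at any of the 3 times. Gabarapl1 differed by -0.51 ± 0.12 (adjusted p = 0.00563), -0.48 ± 0.12 (adjusted p = 0.00925) and -0.94 ± 0.12 (adjusted p = 3.2e-06). Without refed 60 min replicate 1 and without refed 120 min replicate 3 its first and second p were 0.0546 and 0.0725. Atg2a differed by -0.25 ± 0.08 (adjusted p = 0.0373), -0.64 ± 0.08 (adjusted p = 6.5e-06) and -0.86 ± 0.08 (adjusted p = 3.07e-08). The first p of Atg2a became 0.193 without refed 60 min replicate 3 and 0.136 and 0.121 with replicates 1 and 3 of the caged food 60 min group left out in turn. For Pik3c3 the values were -0.33 ± 0.09 (adjusted p = 0.0128), -0.37 ± 0.09 (adjusted p = 0.00542) and -0.50 ± 0.09 (adjusted p = 0.000112). The first p of Pik3c3 became 0.108 without refed 60 min replicate 1 and 0.0789 without caged food 60 min replicate 1. Nbr1 read 16389, 15070 and 14176 with caged food and 12215, 12862 and 13969 after refeeding at 60 min, with no overlap. Its differences of -0.22, -0.21 and -0.24 were the smallest of the 7. The adjusted p of Nbr1 at 60 min became 0.161 and 0.0844 with replicates 1 and 2 of the refed 60 min group left out in turn and 0.174 and 0.0662 with replicates 1 and 2 of the caged food 60 min group left out in turn. At 120 min that p became 0.128 and 0.223 with replicates 2 and 3 of the refed 120 min group left out in turn and 0.113, 0.13 and 0.0726 with replicates 1, 2 and 3 of the caged food 120 min group left out in turn.

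Of the 11 calls of 60 min, 2 (Ulk1 and Calcoco1) passed when limma was fitted to the refed and caged food livers of that time alone. Under that fit the adjusted p was 0.0557 for Map1lc3b, 0.0913 for Atg16l1, 0.155 for Gabarapl1, 0.244 for Pik3c3 and 0.299 for Atg2a. It was 0.35 for Nbr1, 0.15 for Atg13, 0.191 for Atg14 and 0.328 for Pik3r4. Fitting only the groups compared also took away Nbr1 (0.156) and Optn (0.0763) at 120 min and Ambra1 (0.0832) and Atg4b (0.0743) at 240 min. Quantile normalization took away Nbr1 (0.428) and Atg2a (0.135) at 60 min, Nbr1 at 120 min (0.113) and Ambra1 at 240 min (0.161). With no filter on low values the adjusted p was 0.0648 for Atg2a, 0.0691 for Nbr1 and 0.0639 for Pik3r4 at 60 min, 0.0887 for Nbr1 and 0.0628 for Atg101 at 120 min, and 0.0786 for Atg14 and 0.0581 for Ambra1 at 240 min. A replicate block gave 0.0512 for Atg2a at 60 min, 0.0642 for Nbr1 at 120 min and 0.0542 for Atg14 at 240 min. Without the libraries standing apart, the p was 0.0743 for Atg13, 0.0612 for Atg14, 0.0817 for Nbr1 and 0.149 for Pik3r4 at 60 min, 0.0644 for Atg101 at 120 min, and 0.11 for Atg14, 0.0611 for Ambra1 and 0.0722 for Atg4b at 240 min. Leaving out the 2 libraries of conflicting labels gave 0.0547 for Atg101, 0.0698 for Atg14, 0.0897 for Atg16l1, 0.0766 for Atg9a, 0.079 for Nbr1 and 0.098 for Ulk2 at 240 min.

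Other members differed from caged food at fewer times. At 60 min Atg16l1 was higher (0.43 ± 0.09, adjusted p = 0.002), while Atg13 (-0.31 ± 0.07, adjusted p = 0.00797), Atg14 (-0.48 ± 0.13, adjusted p = 0.0182) and Pik3r4 (-0.24 ± 0.08, adjusted p = 0.0401, the groups overlapping) were lower. The adjusted p of Atg13 became 0.0547 without refed 60 min replicate 1 and 0.0518 without caged food 60 min replicate 2. That of Atg14 became 0.148 without refed 60 min replicate 1 and 0.0857 without caged food 60 min replicate 2, and that of Pik3r4 0.142 and 0.153 with replicates 1 and 3 of the refed 60 min group left out in turn and 0.175 and 0.114 with replicates 1 and 2 of the caged food 60 min group left out in turn. Optn was lower at 120 min (-0.36 ± 0.09, adjusted p = 0.0112) and 240 min (-0.55 ± 0.09, adjusted p = 8.4e-05), as were Bnip3l (-0.31 ± 0.08, adjusted p = 0.0163 and -0.51 ± 0.08, adjusted p = 7.69e-05) and Atg101 (-0.37 ± 0.11, adjusted p = 0.0379 and -0.38 ± 0.11, adjusted p = 0.0162). The p of Optn at 120 min became 0.0819 without refed 120 min replicate 2 and 0.0565 and 0.076 with replicates 1 and 2 of the caged food 120 min group left out in turn. For Bnip3l it became 0.0711 and 0.0768 with replicates 2 and 3 of the refed 120 min group left out in turn and 0.0635 and 0.0507 with replicates 1 and 3 of the caged food 120 min group left out in turn. That of Atg101 lay between 0.0524 and 0.159 without each of the 6 libraries. At 240 min Atg16l2 (-1.23 ± 0.23, adjusted p = 0.000377), Wipi1 (-0.75 ± 0.14, adjusted p = 0.000425), Bnip3 (-0.62 ± 0.14, adjusted p = 0.00197), Rb1cc1 (-0.47 ± 0.10, adjusted p = 0.00132) and Wipi2 (-0.34 ± 0.07, adjusted p = 0.00164) were lower and Tfe3 was higher (0.60 ± 0.10, adjusted p = 0.000114). These 6 calls were kept with each library left out in turn. The calls of Atg101, Atg14 (-0.35 ± 0.13, adjusted p = 0.0485), Atg9a (-0.25 ± 0.07, adjusted p = 0.00999), Ulk2 (0.32 ± 0.11, adjusted p = 0.028), Ambra1 (0.20 ± 0.07, adjusted p = 0.0367) and Atg4b (0.21 ± 0.06, adjusted p = 0.00999) were not. Adjusted p-values for Atg101 became 0.0657 and 0.0597 with replicates 1 and 2 of the refed 240 min group left out in turn and 0.0745 without caged food 240 min replicate 1, for Atg9a 0.0517 without caged food 240 min replicate 2 and for Atg4b 0.0674 without refed 240 min replicate 1 and 0.0736 without caged food 240 min replicate 1. Atg14 ranged from 0.0538 to 0.168 with any of the 6 libraries left out, Ulk2 from 0.0545 to 0.0864 with any but refed 240 min replicate 1, and Ambra1 from 0.0566 to 0.201 with any but caged food 240 min replicate 1. Atg16l1 was higher at 240 min as well (0.31 ± 0.09, adjusted p = 0.00969). Atg12 and Map1lc3a were lower only as a mean over the times (-0.11 ± 0.04, adjusted p = 0.0404 and -0.20 ± 0.06, adjusted p = 0.0122), and the p of Atg12 lay between 0.0502 and 0.0817 when 1 of 14 libraries was left out.

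In all, 25 of the 44 genes were called in at least 1 of the 12 comparisons at a single time, where 40.4% of all genes were. Against fasted livers 17 of the 44 were called in at least 1 comparison (31.3% of all genes), and against caged food livers 24 (34%). These shares of all genes are not matched to the members in level. The 19 called in none were Becn1, Uvrag, Atg2b, Atg3, Atg5, Atg7, Atg10, Atg12, Atg4a, Atg4c, Atg4d, Map1lc3a, Gabarap, Gabarapl2, Sqstm1, Tax1bp1, Fundc1, Tfeb and Epg5. This list states a missed threshold and does not show equal levels.

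Several families hold 1 member that fell and 1 that did not. The ratio of the related genes was therefore taken within each library and set side by side for the 12 refed and 12 caged food libraries, for 10 pairs. These pairs were chosen after the values had been seen, so the ratios are a description without a test. Ulk1 to Ulk2 stood at a log2 ratio of -0.92 ± 0.12 in refed and 0.43 ± 0.13 in caged food livers at 240 min (SD, n = 3). The difference in this ratio was 0.07 at 30 min, -0.48 at 60 min, -0.99 at 120 min and -1.36 at 240 min, and the libraries of both groups lay apart at the last 3 times. Atg2a to Atg2b differed by -0.19, -0.14, -0.58 and -0.77 at the 4 times, overlapping at 60 min only. Atg16l1 to Atg16l2 differed by 0.06, 0.54, 0.83 and 1.54, and lay apart at 120 and 240 min. Among ATG8 genes, Map1lc3b to Map1lc3a differed by -0.09, -0.31, -0.39 and -0.55 and Gabarapl1 to Gabarap by -0.03, -0.43, -0.42 and -0.86, both apart at 120 and 240 min. Gabarapl1 to Gabarapl2 differed by -0.26, -0.53, -0.37 and -0.80 and lay apart from 60 min on. Tfeb to Tfe3 lay apart at 240 min only, with a difference of -0.77, as did Wipi1 to Wipi2 (-0.41). Gabarap to Gabarapl2 lay apart at 30 min only (-0.24), and Bnip3 to Bnip3l overlapped at all 4 times. With the treatment labels of the 2 conflicting libraries, the mean difference over the times moved from -0.69 to -0.48 for Ulk1 to Ulk2, from -0.42 to -0.27 for Atg2a to Atg2b and from 0.74 to 0.45 for Atg16l1 to Atg16l2. A ratio shows unequal change of its 2 genes, not which of them moved.

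**Figure D4:**
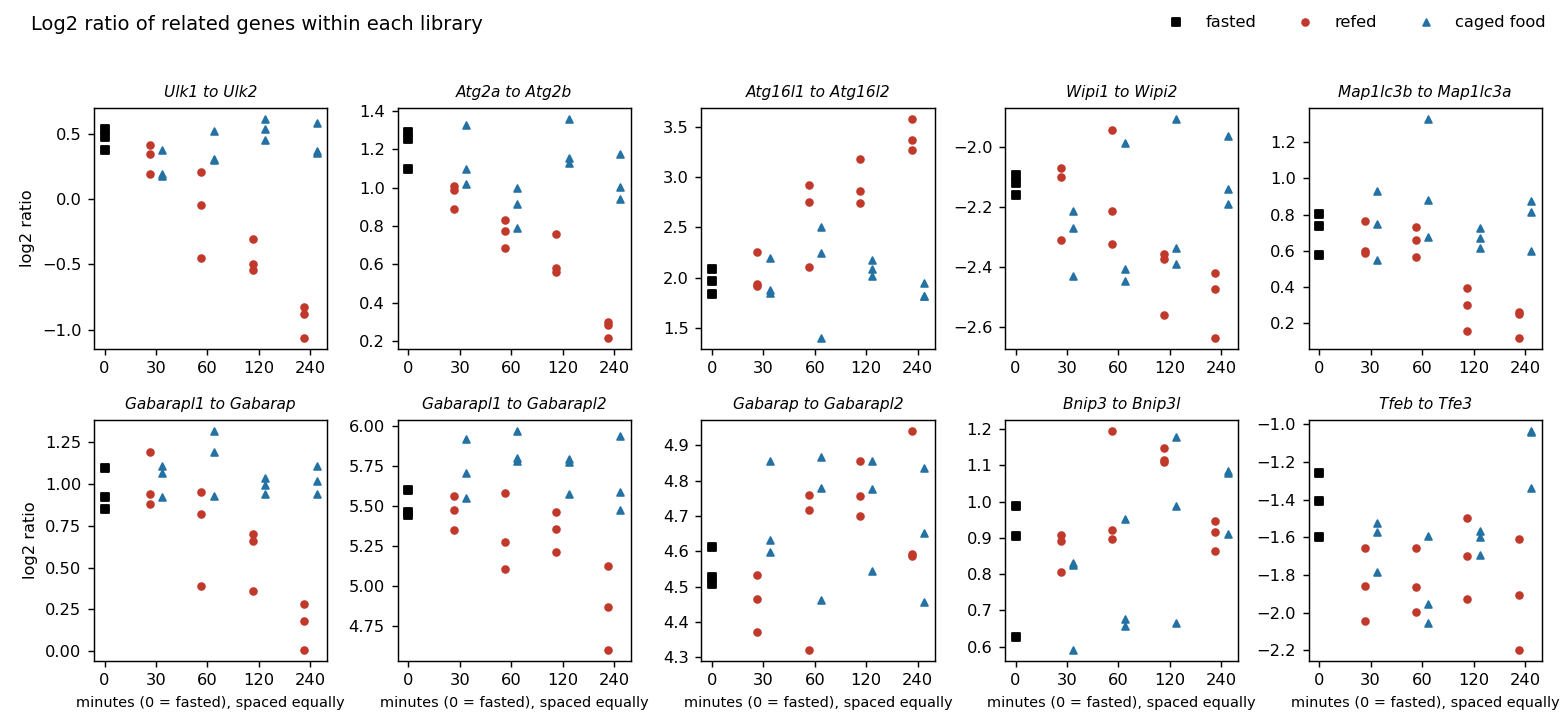
Log2 ratio of 10 pairs of related genes within each library (points) by time, for fasted (black), refed (red) and caged food livers (blue), each panel on its own axis that need not include 0. The ratio of Ulk1 to Ulk2 falls below 0 in the refed livers of 120 and 240 min and that of Atg16l1 to Atg16l2 climbs.

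Levels of different genes were compared per kb of annotated exon, as normalised read counts per kb in fasted livers (mean ± SD, n = 3). Gabarapl1 (8330 ± 865), Sqstm1 (6920 ± 226) and Gabarap (4680 ± 237) were the most abundant of the 44, followed by Map1lc3a (2160 ± 145) and Nbr1 (1960 ± 42.3). Gabarapl1 was above Sqstm1 in every fasted library. Map1lc3b stood at 553 ± 17.6 and Ulk1 at 687 ± 52.2. At the low end were Atg16l2 (66.8 ± 5.02), Tfeb (89.1 ± 10.5), Atg4a (93.4 ± 2.14) and Atg10 (96.2 ± 7.86), of which the last 3 lay within each other's spread. After 240 min of refeeding Gabarapl1 was at 4590 ± 237 per kb and Sqstm1 at 7830 ± 1250, so that Sqstm1 then stood above it.

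**Figure D5:**
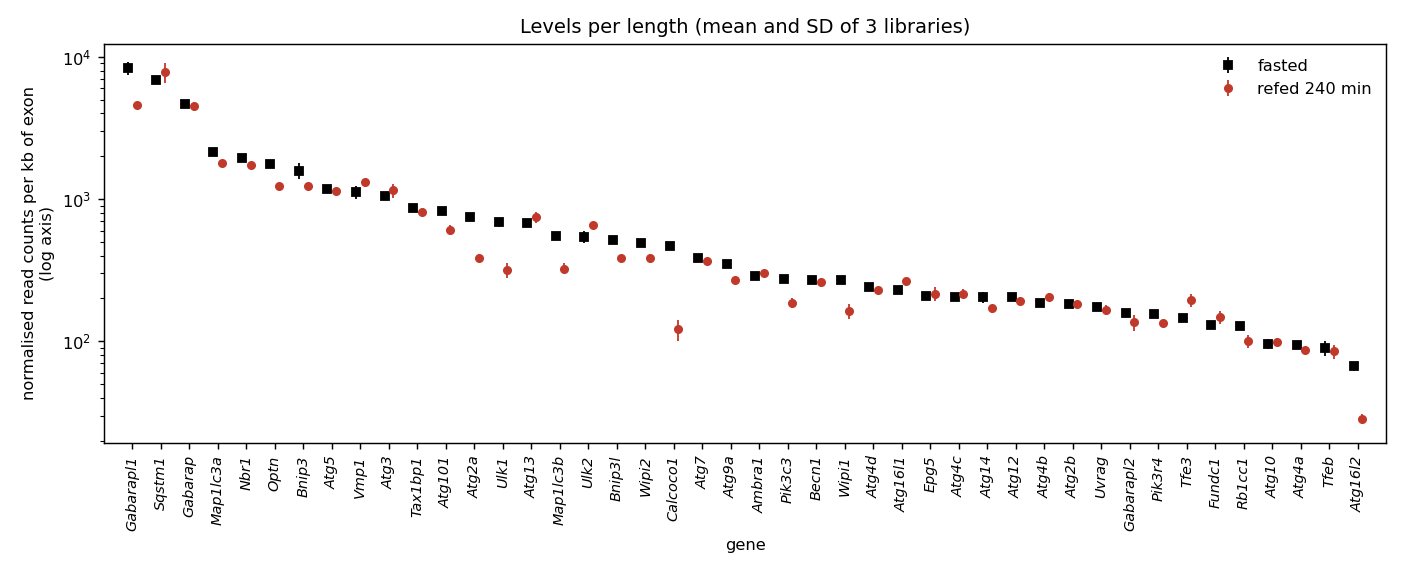
Normalised read counts per kb of exon of the 44 genes on a log axis, ordered by the fasted level, as mean and SD of 3 libraries for fasted and refed 240 min livers. Levels span from Gabarapl1 and Sqstm1 at the top to Tfeb and Atg16l2 at the bottom.

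The other genes of the pathway were taken from lists made for this purpose, with results of these data already known. Of 25 further genes of autophagosome formation and its regulation, 2 rose and 1 fell at 30 min, 3 rose and 4 fell at 60 min, 1 rose and 4 fell at 120 min and 2 rose and 8 fell at 240 min against fasted livers, with medians of 0.01, -0.10, -0.09 and -0.07. In either direction 12%, 28%, 20% and 40% of the list were called, beside 1.63%, 11%, 14.1% and 24.3% of all genes. The 3 called at 30 min were Depp1, Trp53inp1 and Smcr8. The lowest p of these was that of Depp1 (listed as 8430408G22Rik), a FOXO target linked to autophagy, which fell at 30 min (-2.35 ± 0.37, adjusted p = 0.000906), at 60 min (-2.76 ± 0.37, adjusted p = 1.97e-05), at 120 min (-1.46 ± 0.37, adjusted p = 0.00876) and at 240 min (-2.42 ± 0.37, adjusted p = 3.9e-05). With caged food Depp1 rose at 60 min by 1.76 ± 0.37 (adjusted p = 0.0467). Trp53inp1, which encodes a protein that binds ATG8 proteins, rose at 30 min by 0.91 ± 0.22 (adjusted p = 0.0301) and fell at 120 min (-1.05 ± 0.22, adjusted p = 0.00203) and 240 min (-1.79 ± 0.22, adjusted p = 2.94e-06). With caged food it rose at 60 min by 1.03 ± 0.22 (adjusted p = 0.0486). These 2 genes were the only ones of the list called with caged food against fasted livers. Wdr45, a lipid sensor of the WIPI family, fell at 60 min (-0.25 ± 0.08, adjusted p = 0.0409), 120 min (-0.30 ± 0.08, adjusted p = 0.0136) and 240 min (-0.68 ± 0.08, adjusted p = 1.43e-06). Its relative Wdr45b rose at 60 min (0.55 ± 0.12, adjusted p = 0.00318). Smcr8, a partner of C9orf72, rose by 0.37 ± 0.08 at 30 min (adjusted p = 0.0143) and 0.53 ± 0.08 at 60 min (adjusted p = 8.7e-05). C9orf72 itself (listed as 3110043O21Rik) fell at 120 min (-0.66 ± 0.16, adjusted p = 0.00814) and 240 min (-0.69 ± 0.16, adjusted p = 0.00337). Zfyve1, which marks the site of autophagosome formation on the endoplasmic reticulum, fell at 60 min (-0.39 ± 0.08, adjusted p = 0.00267), and Tmem41b, a scramblase like VMP1, rose at 60 min (0.55 ± 0.13, adjusted p = 0.00451), 120 min (0.52 ± 0.13, adjusted p = 0.00636) and 240 min (0.54 ± 0.13, adjusted p = 0.00284).

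Of 21 further receptors and mitophagy genes measured, of 22 listed, 0 were called against fasted livers at 30 min (limma, 2 at an unadjusted p under 0.05), 1 fell at 60 min, 1 at 120 min and 6 at 240 min, when 1 rose. In either direction these are 0%, 4.76%, 4.76% and 33.3% of the list, beside 1.63%, 11%, 14.1% and 24.3% of all genes. Falling alone were 0.326%, 3.75%, 6.13% and 11.4% of all genes, so the counts of 60 and 120 min were near or below the background. Retreg1 (listed as Fam134b), a receptor for turnover of the endoplasmic reticulum, fell at 240 min (-0.91 ± 0.13, adjusted p = 2.18e-05), and so did its relative Retreg2 (Fam134a, -0.48 ± 0.07, adjusted p = 4.9e-05), which had fallen at 120 min as well (-0.31 ± 0.07, adjusted p = 0.00567). Against caged food, Retreg1 was lower at 60 min (-0.58 ± 0.13, adjusted p = 0.00472), 120 min (-0.58 ± 0.13, adjusted p = 0.0051) and 240 min (-1.21 ± 0.13, adjusted p = 4.26e-07). Pink1, the kinase that marks damaged mitochondria, fell at 240 min (-0.27 ± 0.07, adjusted p = 0.00543).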

How the data were processed

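Polyadenylated liver RNA was sequenced in 27 libraries with a stranded kit, per the labels' protocols. Reads were aligned to mm10 (GRCm38) with STAR 2.4.0a and counted with featureCounts 1.4.5-p1 of Subread, per the submitters' processing notes. The deposited values are a score: normalised read counts per gene, scaled by the authors per library and rounded to whole numbers, by a method not given in the sources used here. They were therefore not tested as raw counts. Library groups followed the titles.

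Values were taken as log2(value + 1), for genes that reached 10 in 3 or more libraries, and fitted with limma 3.58.1 (trend, R 4.3.3) to the 9 group means of all libraries, with Benjamini-Hochberg adjustment over the 15932 genes of a comparison and a threshold of 0.05. Tables and figures were made with Python 3.11.15 (pandas 2.3.3, matplotlib 3.10.9). Coordinates, exon lengths and overlaps came from GENCODE M21. The members, lists and alternatives were chosen with earlier results of these data known. Every library's value is given for a fixed panel of 10 members and for 14 further called members of lowest adjusted p. Of the other lists up to 3 called genes of lowest p are named per comparison, some with further times. Rptor, Rheb, Wdr45b and C9orf72 are named beyond this rule, beside related genes that moved the other way. Other members named with single values were chosen after their values were seen.

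The fit was also tested on simulated data with the gene means and spreads of all libraries (15870 genes), changed in refed 120 min alone. Of 50 genes each changed 1.25, 1.5, 2 and 4 times, 24%, 62%, 94% and 100% were called, and 7 of 15670 unchanged genes. Far fewer genes were changed than the 2243 called for refed 120 min against fasted livers. Counting noise was also added to a spread that already held it, so rates in the data may differ. Depth was estimated from the spacing of low values, with an error of up to 5.71% on simulated tables. The alternatives tried were a pseudocount of 5, quantile normalization, testing all genes without the filter, a block for the replicate number, fits that held the compared groups alone, each library left out in turn, and the libraries of conflicting labels or those standing apart left out or regrouped. The design text speaks of 60 samples, and those beyond the 27 were not analysed here.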

Additional observations from a re-analysis of the deposited data

Results flagged for a closer look

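For 13 of the 44 genes the effect of refeeding, measured against caged food at the same time, varied over the 4 times by a limma F test that called 9.97% of all genes. The lowest adjusted p-values were those of Calcoco1 (2.68e-06), Ulk1 (4.27e-06) and Atg2a (8.4e-05). Map1lc3b (0.00749), Gabarapl1 (0.0103) and Optn (0.011) followed, then Wipi1 (0.0156), Atg9a (0.0165), Bnip3l (0.0427) and Atg16l2 (0.0432). In these 10 genes the refed livers of 240 min were the furthest below the caged food livers of the same time, or for Ulk1 equally far at 120 and 240 min (-1.04 at both). Tfe3 (0.0251) differed most at 240 min as well, in the other direction (0.60). For Atg13 (0.022) refed livers were lower at 60 min (-0.31) and not at 120 min (0.08), and for Bnip3 (0.0469) they were lower at 240 min (-0.62) and not at 60 min (0.13). The number called was 8 without the libraries standing apart and 0 with the treatment labels of the 2 conflicting libraries.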

How the results depend on the processing

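The 4 counts of caged food against fasted livers were 0 under every alternative that was run. With the treatment labels of the 2 conflicting libraries the number of members called was 0 for refed 240 min against fasted, 0 for refed against caged food at 240 min, 7 for the mean over times, 4 for variation over the refed times, 0 over the caged food times and 0 for the difference between refed and caged food over time. Fitting only the groups compared left 2 calls for refed against caged food at 60 min. Without the libraries that stood apart, 1 was called for refed against caged food at 30 min and 8 for the difference over time. Variation over the caged food times was called for 0 members with no filter on low values, with a replicate block, with only the groups compared, without the conflicting libraries and without those standing apart. With each library left out in turn, counts for refed against fasted livers ranged from 0 to 1 at 30 min, 4 to 6 at 60 min, 6 to 11 at 120 min and 14 to 16 at 240 min, and for refed against caged food from 0 to 0, 6 to 10, 6 to 11 and 18 to 20, with 20 to 24 for the mean over times, 15 to 18 over the refed times, 0 to 1 over the caged food times and 9 to 13 for the difference over time. The cause of these shifts was not tested. Over the calls of single members, leaving out 1 library kept 867 and lost 117, and none was reversed. Replicate numbers did not pair the libraries (mean correlation of same-numbered libraries -0.00944 over 108 pairs, and 8 of 27 libraries closest to their own number), and a replicate block took away 6 calls of single members, with 9 called for refed 120 min against fasted and, beyond variation over the caged food times, no count moved by over 1.5 times. With 3 libraries a group, small changes can be missed, and how often was measured on the simulated data only.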

Other observations

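Among genes that steer autophagy by nutrient supply, a minority passed the test. Of 30 genes of mTORC1, AMPK and FOXO control, 0 were called by limma at 30 min of refeeding against fasted livers (0 at an unadjusted p under 0.05), 1 rose and 4 fell at 60 min, 1 rose and 3 fell at 120 min and 4 rose and 7 fell at 240 min, with 0 called with caged food at any time (2, 3, 3 and 1 at an unadjusted p under 0.05). The share of the list called in refed livers was 0%, 16.7%, 13.3% and 36.7% at the 4 times, beside 1.63%, 11%, 14.1% and 24.3% of all genes, so that it lay near the background at 120 min. Sesn2, which encodes a leucine sensor that restrains mTORC1, fell at 60 min (-1.84 ± 0.20, adjusted p = 2.48e-06), 120 min (-1.78 ± 0.20, adjusted p = 3.13e-06) and 240 min (-1.78 ± 0.20, adjusted p = 1.06e-06). Its relative Sesn1 fell at 60 min (-0.38 ± 0.09, adjusted p = 0.00607) and 240 min (-0.36 ± 0.09, adjusted p = 0.00552). The kinase gene Mtor fell at 120 min (-0.35 ± 0.07, adjusted p = 0.00153) and 240 min (-0.32 ± 0.07, adjusted p = 0.00177), while Prkab1, a subunit of AMPK, rose at 120 and 240 min (0.33 ± 0.08, adjusted p = 0.0047, and 0.36 ± 0.08, adjusted p = 0.0013). Other mTORC1 genes rose at 240 min, Rptor by 0.29 ± 0.09 (adjusted p = 0.0156) and Rheb by 0.25 ± 0.08 (adjusted p = 0.0267). Against caged food Mtor was lower at 120 min (-0.30 ± 0.07, adjusted p = 0.00753) and was not called at 240 min, where Rptor was higher (0.35 ± 0.09, adjusted p = 0.00316). Against caged food, Foxo3, a transcription factor of fasting, was lower at 60 min (-0.82 ± 0.17, adjusted p = 0.00208), 120 min (-0.53 ± 0.17, adjusted p = 0.0402) and 240 min (-0.65 ± 0.17, adjusted p = 0.00549). Lower at 60 min was also Flcn, the folliculin that lets mTORC1 act on TFEB and TFE3 (-0.67 ± 0.11, adjusted p = 0.000176), as it was at 240 min (-0.45 ± 0.11, adjusted p = 0.00288).

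Of 17 genes for fusion of autophagosomes with lysosomes, 1 rose and 1 fell at 60 min of refeeding against fasted livers, 1 rose at 120 min, and 1 rose and 3 fell at 240 min. These are 11.8%, 5.88% and 23.5% of the list, near or below the 11%, 14.1% and 24.3% of all genes. Snap29, which encodes a fusion SNARE, rose at 60 min (0.23 ± 0.07, adjusted p = 0.0381), 120 min (0.26 ± 0.07, adjusted p = 0.0142) and 240 min (0.27 ± 0.07, adjusted p = 0.00822). Tecpr1, a tether between autophagosomes and lysosomes, fell at 60 min (-0.33 ± 0.08, adjusted p = 0.0062) and 240 min (-0.29 ± 0.08, adjusted p = 0.00743). Against caged food livers of the same time, limma called 0 of the 17 at 60 and 120 min, with 5 and 2 at an unadjusted p under 0.05. All genes called there were 10.9% and 11.3%. At 240 min 1 was higher and 3 lower, 23.5% of the list beside 27% of all genes. Tecpr1 was among the lower ones (-0.26 ± 0.08, adjusted p = 0.0135), and Snap29 was not called at any of these times. The largest change in this list against fasted livers was -0.33, beside -1.96 among the 44 genes.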
